A study of Mus musculus with 12 samples.

Results

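The genes described here make the sphingolipid backbone and place its first head groups: serine palmitoyltransferase subunits Sptlc1 and Sptlc2, the regulators Ormdl1, Ormdl2 and Ormdl3, the ceramide synthases Cers2, Cers5 and Cers6, sphingomyelin synthase Sgms1 and glucosylceramide synthase Ugcg. A probe set was taken where the platform annotation gave it 1 gene symbol and that symbol was one of these 10 names. This found 8 of the 18193 genes that have such a probe set, with 20 of the 45037 non-control probe sets, and each probe set was kept apart. The measured value the members were chosen by was the disagreement of the Sptlc2 probe sets on these arrays, so Sptlc2 is described without a test. Ormdl2 and Ormdl3 had only probe sets annotated with several symbols, so they have no values here.

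The arrays measured RNA from 3T3-L1 cells, a mouse fibroblast-like line that becomes adipocytes in culture. Differentiation was induced over 48 h with 5 μg/ml insulin, 1 μM dexamethasone and 0.5 mM IBMX, followed by serum with insulin, and treatment fell on days 8 to 10 of differentiation. Serum was then withdrawn from all groups for the 12 h before treatment, while albumin was present at 0.2%. The 4 groups were DMSO vehicle and 5 μM berberine, a plant alkaloid, for 3 h, 6 h and 12 h, with 3 arrays each. The labels give no time for DMSO, and every berberine time shares the same 3 DMSO arrays, so berberine and time in culture cannot be told apart. They do not say whether the arrays of a group came from separate cultures, so each p-value reflects variation among arrays, which may be technical. 3T3-L1 is a clonal line, without the other cells of fat tissue.

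Serine palmitoyltransferase joins serine to palmitoyl-CoA in the endoplasmic reticulum, the committed step of sphingolipid synthesis, and ORMDL proteins restrain it when ceramide is plentiful. Ceramide synthases then attach fatty acids of a length that differs between the enzymes. Ceramide is turned in the Golgi into sphingomyelin by Sgms1 or into glucosylceramide, the root of the glycosphingolipids, by Ugcg. In adipocytes ceramides are known for blunting insulin signalling.

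The RefSeq promoters of Ugcg, Sptlc1 and Sptlc2 are printed because differences of these genes are described below and each has 1 annotated start. Sgms1 has 4 annotated starts, and which of them the cells use was not analysed here, so its windows are not printed. Each is the 250 bases before the annotated start, read 5′ to 3′ on the gene's strand in GRCm38.p6. Capitals mark GC boxes (GGGCGG) and CCAAT boxes on either strand.
Ugcg, chr4:59189300-59189549, plus strand: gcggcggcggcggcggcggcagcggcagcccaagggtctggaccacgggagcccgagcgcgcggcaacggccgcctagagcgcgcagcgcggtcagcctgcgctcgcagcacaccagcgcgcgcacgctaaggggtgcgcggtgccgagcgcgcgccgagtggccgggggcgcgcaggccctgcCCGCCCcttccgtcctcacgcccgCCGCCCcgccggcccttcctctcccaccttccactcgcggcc
Sptlc1, chr13:53377362-53377611, minus strand: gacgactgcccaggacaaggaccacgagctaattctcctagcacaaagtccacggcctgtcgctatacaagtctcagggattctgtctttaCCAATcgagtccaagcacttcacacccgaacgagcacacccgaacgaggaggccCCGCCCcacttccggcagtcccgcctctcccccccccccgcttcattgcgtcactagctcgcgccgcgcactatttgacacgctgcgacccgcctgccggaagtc
Sptlc2, chr12:87388356-87388605, minus strand: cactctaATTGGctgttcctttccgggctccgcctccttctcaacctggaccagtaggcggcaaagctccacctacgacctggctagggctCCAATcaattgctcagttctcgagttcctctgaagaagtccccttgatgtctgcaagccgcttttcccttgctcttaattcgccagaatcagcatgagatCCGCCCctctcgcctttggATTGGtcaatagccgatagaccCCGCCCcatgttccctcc
The Ugcg window held 2 GC boxes and 0 CCAAT boxes, the Sptlc1 window 1 and 1, and the Sptlc2 window 2 and 3. G and C made up 80.4% of the Ugcg window, 61.6% of the Sptlc1 window and 55.2% of the Sptlc2 window, against a median of 52.4% over 32851 windows of the same length. All 8 genes matched the promoter table, with 12 windows in all since some genes have several starts. A GC box stood in 8 of the 12 windows and in 32.7% of all windows, and a CCAAT box in 6 of 12 and in 33.8% of all. The letters ACGTG, held by E-boxes of the CACGTG kind, stood in 2 of 12 windows and in 16.6% of all. All were searched on both strands. These matches are a description of letters only.

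Values are log2 MAS5 signals, and a level of 5.77, the median over all non-control probe sets, served as the threshold for a low signal. On each array 47.9% to 51.6% of probe sets reached it. Arrays correlated at 0.960 to 0.968 within groups and 0.950 to 0.966 between groups. The spiked control AFFX-r2-P1-cre-3_at averaged 15.45 in DMSO and 15.64, 15.80 and 15.72 at 3 h, 6 h and 12 h. In the same order AFFX-CreX-3_at averaged 14.95, 15.09, 15.27 and 15.17, and AFFX-r2-Ec-bioB-3_at 10.82, 10.81, 10.98 and 10.91. The part of these offsets in the results was not tested. All 10 adipocyte markers that had a probe set of their own were above the threshold on all 12 arrays, and their mean log2 level was 12.91 to 12.97 at 12 h of berberine, against 13.18 to 13.42 in DMSO. Their summed signal was 17.44 to 17.57 (log2) at 12 h and 17.34 to 17.69 in DMSO. All 5 preadipocyte or fibroblast markers with a probe set were above the threshold on all 12 arrays too, with a mean log2 level of 11.72 to 11.89 at 12 h and 11.81 to 11.97 in DMSO. Of 5 macrophage markers, Csf1r was above it on 12 arrays, Cd68 on 10, Adgre1 on 2, and Itgam and Ptprc on 0. Of 4 endothelial markers, Kdr was above it on 4 arrays, Pecam1 on 1, and Cdh5 and Tek on 0. The summed macrophage list stood at log2 levels of 8.00 to 8.29 at 12 h and 8.02 to 8.20 in DMSO. The part of these marker levels in the results below was not tested, and in bulk RNA fewer cells of a type and less RNA per cell cannot be told apart.

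At 12 h of berberine, 3 of 3 tested Ugcg probe sets and 2 of 4 tested Sgms1 probe sets were higher than in DMSO, and 1 of 3 tested Sptlc1 probe sets was lower. At 3 h, 2 of the Ugcg and 1 of the Sgms1 probe sets were already higher, by 1.50-fold to 2.01-fold. Each of these 3 h calls was lost when certain single arrays were left out. The Sptlc1 probe set was lower at 6 h and 12 h, by 1.43-fold and 1.47-fold. Of all probe sets tested, 0.631% were called higher at 3 h and 5.18% lower at 6 h. At 12 h the shares were 11.5% higher and 11.8% lower. No probe set of Ormdl1, Cers2, Cers5 or Cers6 passed the test at any time. The 2 main Sptlc2 probe sets ran in opposite directions. A probe set passed, or was called, when its limma adjusted p was under 0.05, with p adjusted over 25053 probe sets.

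Of the 20 probe sets, 18 passed the low-value filter of 3 or more arrays at the threshold. The 2 that failed were Sptlc1 1422691_at, at 2.70 to 5.73, and Ugcg 1439863_at, at 0.00 to 4.88. Without Sptlc2, 15 probe sets of 7 genes were tested. At 3 h, 3 of the 15 were higher, against 0.631% of all probe sets tested, and 0 were lower, against 0.367%. At 6 h, 3 were higher and 1 was lower, against 5.30% and 5.18% of all. At 12 h, 5 were higher and 1 was lower, against 11.5% and 11.8% of all. The moderated F test over all 4 groups called 5 of the 15, against 19.4% of all. The median log2 difference of the 15 was -0.03 at 3 h, 0.14 at 6 h and -0.02 at 12 h, beside 0.02, 0.01 and 0.01 over all probe sets tested. The genes were gathered with earlier results of these arrays known, so nothing is read from the gap between these shares.

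**Figure D1:**
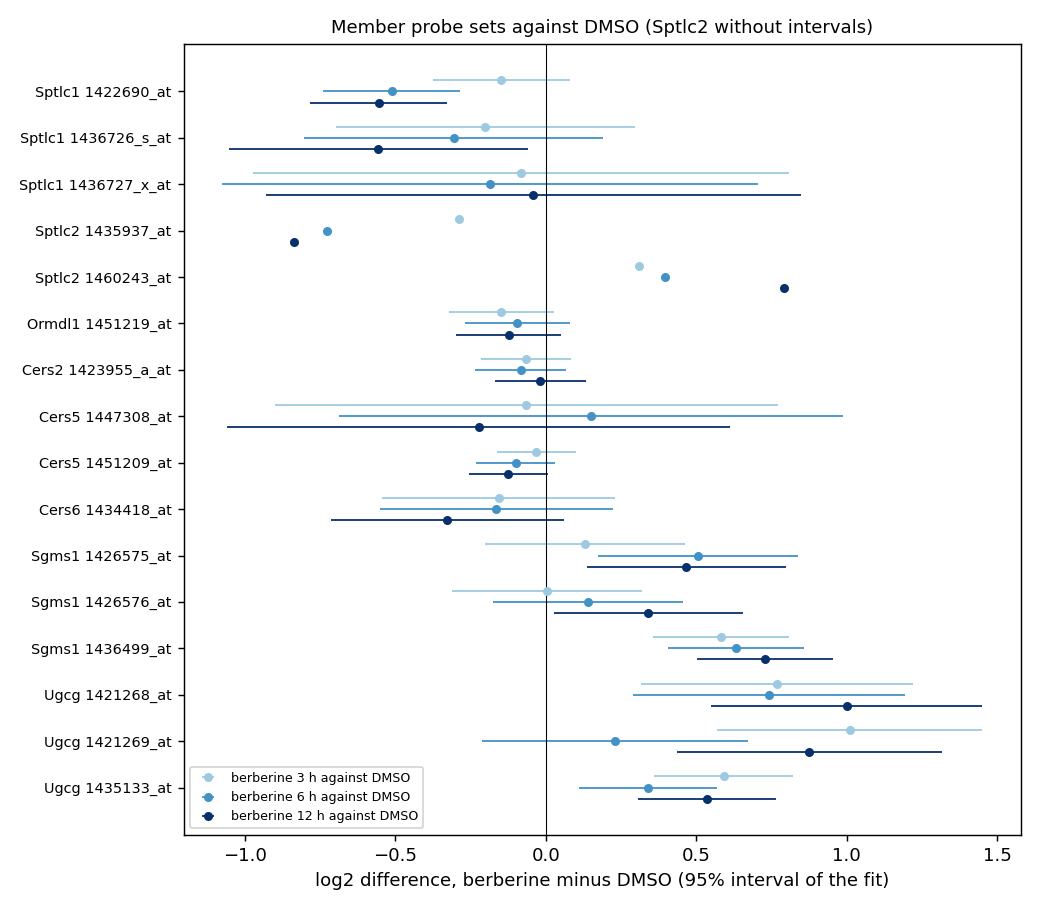
Log2 difference of each berberine time from DMSO (x axis) for the 16 probe sets that reached the threshold on most arrays (rows); points are differences of means of 3 arrays, bars are 95% intervals of the fit, and Sptlc2 is drawn without intervals because it was not tested. The intervals of Sgms1 1436499_at and of Ugcg 1421268_at and 1435133_at lie right of 0 at all 3 times, those of Sptlc1 1422690_at lie left of it at 6 h and 12 h, and the Sptlc2 probe sets lie on opposite sides.

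Sptlc1 encodes the subunit that anchors serine palmitoyltransferase, and its brightest probe set fell from 6 h on. Probe set 1422690_at read 10.22, 9.88 and 10.26 in DMSO, 9.96, 10.05 and 9.91 at 3 h, 9.44, 9.63 and 9.76 at 6 h, and 9.55, 9.49 and 9.66 at 12 h. All 6 arrays at 6 h and 12 h lay below all DMSO arrays, while the 3 h arrays overlapped them. The level averaged 9.61 ± 0.16 at 6 h, against 10.12 ± 0.21 in DMSO (SD, n = 3 each), a log2 difference of -0.51 ± 0.11 (SE, limma adjusted p = 0.00566). At 12 h it averaged 9.57 ± 0.08, a log2 difference of -0.56 ± 0.11 (SE, limma adjusted p = 0.00111). Both calls stood in every alternative and with any 1 array left out. At 3 h the log2 difference was -0.15 (limma adjusted p = 0.646).

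The other Sptlc1 probe sets did not pass. Probe set 1436726_s_at, whose suffix marks probes shared by several transcripts, read 6.98, 6.86 and 7.32 at 12 h and 7.76, 7.63 and 7.44 in DMSO. These groups did not overlap, but the log2 difference of -0.56 (95% interval -1.05 to -0.06) had a limma adjusted p of 0.102. Probe set 1436727_x_at, whose suffix marks probes that may bind unrelated transcripts, ranged from 5.88 to 7.90, and its 12 h log2 difference was -0.04 (limma adjusted p = 0.963).

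Sptlc2 encodes the catalytic partner of Sptlc1, and its probe sets went opposite ways. Probe set 1435937_at read 9.69, 9.74 and 9.76 in DMSO, 9.36, 9.49 and 9.48 at 3 h, 9.16, 8.79 and 9.05 at 6 h, and 8.89, 8.79 and 8.99 at 12 h. At each time its berberine arrays all lay below the DMSO arrays, and the means were 1.22-fold lower at 3 h, 1.65-fold lower at 6 h and 1.79-fold lower at 12 h. Probe set 1460243_at read 10.91, 10.73 and 10.84 in DMSO, 11.23, 11.19 and 10.98 at 3 h, 11.22, 11.27 and 11.17 at 6 h, and 11.50, 11.70 and 11.65 at 12 h. At each time its berberine arrays all lay above the DMSO arrays, and the means were 1.24-fold, 1.31-fold and 1.73-fold higher in time order. By 12 h the changes of the 2 probe sets stood 1.63 log2 units apart. The members were chosen by this disagreement, so the separation of these arrays is description only and was not tested. Which transcripts each probe set binds was not analysed here, so the files give no single direction for Sptlc2.

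The third Sptlc2 probe set, 1454257_at, reached the threshold on 5 of 12 arrays. It read 4.0, 3.97 and 5.13 in DMSO, 5.27, 4.66 and 6.28 at 3 h, 6.54, 6.20 and 2.28 at 6 h, and 5.75, 6.16 and 5.99 at 12 h. The 12 h arrays lay above all DMSO arrays. The mean was 5.97 at 12 h and 4.37 in DMSO, but the DMSO arrays and 12 h replicate 1 (5.75) were below the threshold. With low values raised to the threshold, the 12 h level was 1.15-fold higher. The probe set passed the filter only through berberine arrays, so no rise is read from it.

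**Figure D2:**
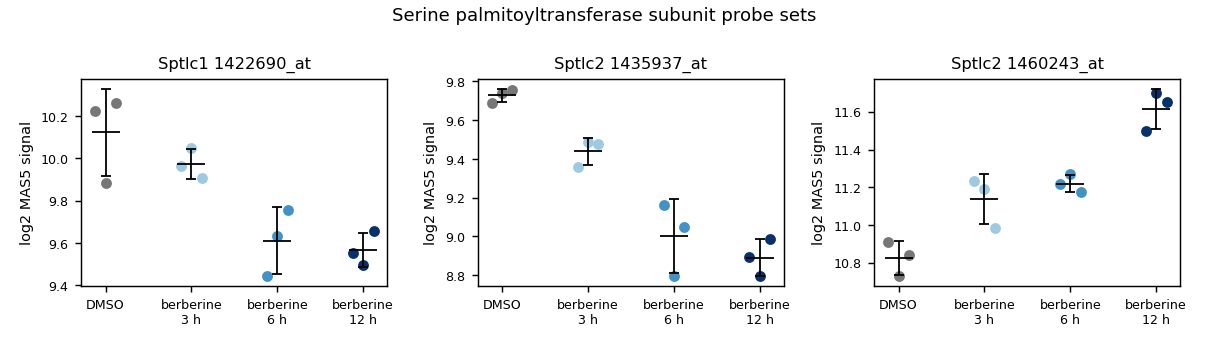
Log2 MAS5 signal (y axis, a separate range in each panel) of Sptlc1 1422690_at and of the 2 brighter Sptlc2 probe sets in the 4 groups (x axis); points are arrays, and bars are the mean ± SD of 3 arrays. Sptlc1 and Sptlc2 1435937_at step down to means of 9.57 and 8.89 at 12 h, while Sptlc2 1460243_at steps up to 11.62.

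Ormdl1, one of the endoplasmic reticulum proteins that restrain serine palmitoyltransferase, did not pass at any time. Probe set 1451219_at averaged 10.51 ± 0.16 in DMSO, 10.36 ± 0.08 at 3 h, 10.41 ± 0.05 at 6 h and 10.38 ± 0.03 at 12 h (SD, n = 3 each), and every group overlapped DMSO. The 12 h log2 difference was -0.12, with a 95% interval of -0.30 to 0.05 (limma adjusted p = 0.328). The intervals at 3 h and 6 h ran from -0.32 to 0.03 and from -0.27 to 0.08.

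No ceramide synthase probe set among these genes was called. Cers2, which favours very long acyl chains, ranged from 10.48 to 10.68 over all arrays, and its 12 h log2 difference was -0.02 (95% interval -0.17 to 0.13, limma adjusted p = 0.897). Cers5, which favours palmitoyl-CoA, read 11.58, 11.63 and 11.63 on 1451209_at at 12 h and 11.74, 11.72 and 11.75 in DMSO. The Cers5 groups did not overlap at 12 h, yet the log2 difference of -0.12 (95% interval -0.26 to 0.01) had a limma adjusted p of 0.17. The other Cers5 probe set, 1447308_at, lay near the threshold at 5.43 to 6.92 and gave limma adjusted p-values of 0.754 to 0.976.

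Cers6, the other synthase that favours palmitoyl-CoA, read 10.68, 9.72 and 10.05 at 12 h, against 10.56, 10.76 and 10.12 in DMSO. The groups overlapped, and the log2 difference of -0.33 (95% interval -0.71 to 0.06) had a limma adjusted p of 0.228. This value depended on single arrays. With 1 array left out, the log2 difference ran from -0.59 to -0.11. The limma adjusted p ran from 0.0101, without 12 h replicate 1, up to 0.722.

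Sgms1 makes sphingomyelin from ceramide, and its brightest probe set rose within 3 h and stayed high. Probe set 1436499_at read 10.12, 10.39 and 10.24 in DMSO, 10.88, 10.83 and 10.78 at 3 h, 11.05, 10.72 and 10.87 at 6 h, and 10.76, 10.96 and 11.20 at 12 h. All 9 berberine arrays lay above all DMSO arrays. The level was 1.50-fold higher at 3 h (log2 difference 0.58 ± 0.11 SE, limma adjusted p = 0.0113). It was 1.55-fold higher at 6 h and 1.66-fold higher at 12 h (limma adjusted p = 0.00126 and 9.65e-05). The 6 h and 12 h calls stood in every alternative. The 3 h call was lost without the intensity trend (limma adjusted p = 0.126) and without 3 h replicate 1 (0.0644), 3 h replicate 2 (0.056) or DMSO replicate 1 (0.0785).

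Of the other 3 Sgms1 probe sets, 1 passed the test. Probe set 1426575_at read 7.91, 7.87 and 7.71 in DMSO, 7.98, 7.92 and 7.97 at 3 h, 8.41, 8.64 and 7.96 at 6 h, and 8.38, 8.31 and 8.21 at 12 h. It was 1.42-fold higher at 6 h and 1.38-fold higher at 12 h (limma adjusted p = 0.0498 and 0.04). The 6 h call was lost in 11 of the 12 fits that left out 1 array, with adjusted p up to 0.2275, and the 12 h call when any 1 of the 12 h or DMSO arrays was left out, with adjusted p of 0.0544 to 0.1243. With no filter, low values raised or no intensity trend, both calls were lost too. The limma adjusted p was then 0.0814, 0.0752 and 0.0822 at 6 h, and 0.0674, 0.0624 and 0.0569 at 12 h. Probe set 1426576_at averaged 9.55 at 12 h and 9.21 in DMSO, a log2 difference of 0.34 (limma adjusted p = 0.115). With 1 array left out, that difference ran from 0.26 to 0.48. Its limma adjusted p ran from 0.0358, without 12 h replicate 2, up to 0.327. Probe set 1442079_at, above the threshold on 3 arrays, ranged from 2.30 to 6.54 and was not called (limma adjusted p = 0.124 at 12 h).

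Ugcg, the enzyme that commits ceramide to glycosphingolipids, was higher at 12 h on all 3 probe sets tested. Probe set 1435133_at read 8.68, 8.86 and 8.59 in DMSO, 9.46, 9.16 and 9.29 at 3 h, 9.04, 9.07 and 9.03 at 6 h, and 9.36, 9.13 and 9.24 at 12 h. All 9 berberine arrays lay above the DMSO arrays. It was 1.51-fold higher at 3 h, 1.27-fold at 6 h and 1.45-fold at 12 h (limma adjusted p = 0.0114, 0.056 and 0.00167), so the 6 h value missed the threshold. That value did pass under quantile normalization (limma adjusted p = 0.0407), the stricter filter (0.0475) and 1 probe set per gene (0.0424). It also passed without DMSO replicate 2 (0.0362). The 3 h call was lost without the intensity trend (0.0661) and without 3 h replicate 1 (0.077) or DMSO replicate 1 (0.0659), each an adjusted p.

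Probe set 1421268_at of Ugcg read 6.71, 7.44 and 6.57 in DMSO, 7.85, 7.43 and 7.75 at 3 h, 7.66, 7.79 and 7.50 at 6 h, and 7.80, 7.88 and 8.04 at 12 h. DMSO replicate 2 stood well above the other 2 DMSO arrays and overlapped the 3 h group. The signal was 2.00-fold higher at 12 h (log2 difference 1.00 ± 0.21 SE, limma adjusted p = 0.00247) and 1.67-fold higher at 6 h (limma adjusted p = 0.0344). The 6 h call was lost without any 1 of the 6 h arrays, DMSO replicate 1 or DMSO replicate 3, with adjusted p up to 0.133, and with no filter, low values raised or no intensity trend (0.0553, 0.0502 and 0.0764). At 3 h the 1.70-fold difference had a limma adjusted p of 0.11. With 1 array left out, that p ran from 0.0143, without DMSO replicate 2, up to 0.36.

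The third Ugcg probe set, 1421269_at, read 6.44, 6.56 and 6.67 in DMSO, 7.35, 7.65 and 7.71 at 3 h, 6.70, 6.88 and 6.79 at 6 h, and 7.35, 7.19 and 7.77 at 12 h. All berberine arrays lay above DMSO, with the 6 h arrays close to it and the 3 h and 12 h arrays well above. It was 2.01-fold higher at 3 h and 1.83-fold higher at 12 h (limma adjusted p = 0.0246 and 0.00541), against 1.17-fold at 6 h (limma adjusted p = 0.571). The lower 6 h level was not shown to differ from 3 h, with a log2 difference of -0.78 ± 0.21 (SE, limma adjusted p = 0.0807). The 3 h call was lost without 3 h replicate 2 (adjusted p = 0.117), 3 h replicate 3 (0.111), DMSO replicate 1 (0.115) or DMSO replicate 2 (0.0566). All 3 Ugcg calls at 12 h stood in every alternative.

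**Figure D3:**
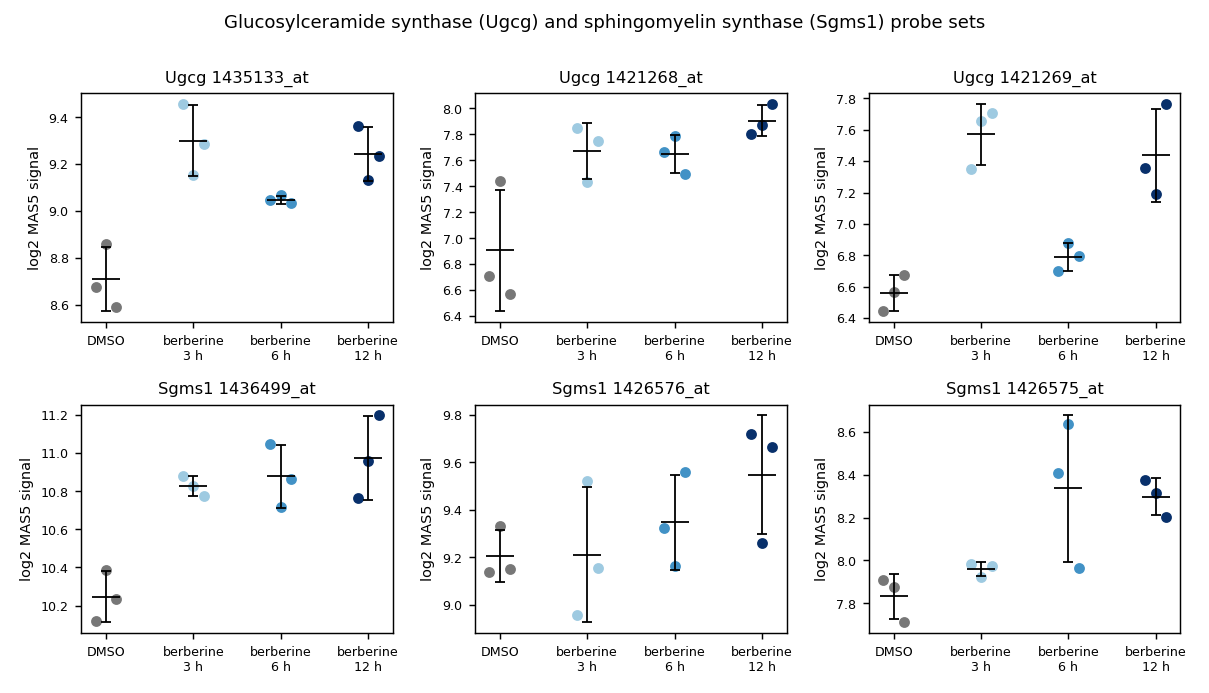
Log2 MAS5 signal (y axis, a separate range in each panel) of 3 Ugcg and 3 Sgms1 probe sets in the 4 groups (x axis); points are arrays, and bars are the mean ± SD of 3 arrays. Ugcg 1421269_at averages 7.57 at 3 h, 6.79 at 6 h and 7.44 at 12 h, while Sgms1 1436499_at stays between 10.83 and 10.97.

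Few of the 15 probe sets were called between berberine times; these differences of means use no DMSO arrays, though the fit takes its spread from all 12 arrays. Between 6 h and 3 h, 0 of 15 were called by limma, against 1.43% of all. Between 12 h and 6 h, 0 were called by limma, against 3.78% of all. Between 12 h and 3 h, 1 was called, against 13.7% of all, and it was the 1 called between any pair of times, against 14.3% of all. It was Sptlc1 1422690_at, 1.33-fold lower at 12 h than at 3 h (log2 difference -0.41 ± 0.11 SE, limma adjusted p = 0.0167). That call was lost without the intensity trend (adjusted p = 0.0608), without 3 h replicate 2 (0.0716) or without 12 h replicate 2 (0.0681). Sgms1 1436499_at had limma adjusted p-values of 0.442 to 0.898 between the times.

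Sgms1 1436499_at had the largest moderated F of the 15. Among 21688 other probe sets, the 3 whose levels followed it most closely over the 12 arrays were those of Rnf19b (Pearson r = 0.963), Clk4 (0.951) and Fgl2 (0.948). The arrays share their 4 groups, so these values describe a common pattern only.

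Beyond these genes, a list of 55 other sphingolipid genes gave 68 tested probe sets of 39 genes. At 12 h, 13 probe sets of 11 genes were higher and 12 of 8 genes were lower, beside 11.5% and 11.8% of all probe sets tested. At 6 h, 3 were higher and 6 lower, beside 5.30% and 5.18% of all, and at 3 h, 1 was higher and 0 lower, beside 0.631% and 0.367%. Across the 3 times 25 probe sets of 19 genes were called at least once, against 24.9% of all probe sets. The median log2 difference of the 68 was 0.04 at 3 h, -0.01 at 6 h and 0.04 at 12 h.

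At 12 h the 1 Sptssa probe set, 1 of 3 Kdsr, 3 of 3 Cers4 and 1 of 4 desaturase or hydroxylase probe sets were lower, and 0 of these were higher. Of all probe sets tested, 11.8% were lower and 11.5% higher at 12 h. Sptssa and Degs1 were chosen for description after their values were seen. Sptssa, a small activating subunit of serine palmitoyltransferase, read 12.44, 12.52 and 12.41 at 12 h, against 12.88, 12.90 and 12.90 in DMSO. The groups lay apart, 1.35-fold lower at 12 h (limma adjusted p = 6.05e-05). Kdsr, which reduces the first product of that enzyme, read 7.90, 7.61 and 7.90 on 1435899_at at 12 h, against 8.52, 8.63 and 8.89 in DMSO. That was 1.84-fold lower (limma adjusted p = 0.000194), while its other 2 probe sets did not pass. The brightest Kdsr probe set, 1428559_at, averaged 9.72 at 12 h and 9.76 in DMSO. At 6 h Kdsr 1435899_at was 1.46-fold lower (limma adjusted p = 0.0189), a call lost without 6 h replicate 3 or DMSO replicate 3.

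Cers4, a further ceramide synthase, fell on all 3 of its probe sets at 6 h and 12 h, although the 6 h call of 1417780_at was lost without DMSO replicate 3 (limma adjusted p = 0.0516) and without the intensity trend (0.0622). Probe set 1417781_at read 11.39, 11.41 and 11.59 in DMSO, 11.15, 11.24 and 11.39 at 3 h, 10.81, 10.81 and 10.76 at 6 h, and 10.12, 10.01 and 10.44 at 12 h. It was 2.42-fold lower at 12 h (log2 difference -1.28 ± 0.10 SE, limma adjusted p = 1.23e-07). It was also lower at 12 h than at 6 h (log2 difference -0.60, limma adjusted p = 0.00203). Degs1, the desaturase that turns dihydroceramide into ceramide, was 1.14-fold lower on 1423345_at (limma adjusted p = 0.0281), a call lost with no filter, with no intensity trend and without any 1 of the 12 h arrays, DMSO replicate 2 or DMSO replicate 3. The brighter Degs1 probe set 1423346_at averaged 13.33 at 12 h and 13.30 in DMSO (limma adjusted p = 0.791).

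At 12 h, 1 of 6 probe sets for ceramide transfer and phosphorylation and 2 of 5 of the sphingomyelin synthase family were higher, and 0 of these were lower. Those counts stand beside 11.5% higher and 11.8% lower of all probe sets tested. Cert1, which moves ceramide to the Golgi for sphingomyelin synthesis, read 8.10, 7.83 and 7.89 on 1420383_a_at at 12 h, against 6.76, 7.19 and 6.72 in DMSO. That was 2.07-fold higher (limma adjusted p = 0.00183), and its other 3 probe sets did not pass. The brightest Cert1 probe set, 1452867_at, averaged 11.16 at 12 h and 10.96 in DMSO, and the groups overlapped. Samd8, a relative of the sphingomyelin synthases that makes a related lipid, was 1.33-fold higher on 1434402_at (limma adjusted p = 0.000221) and 1.54-fold higher on 1458408_at (limma adjusted p = 0.0211), the second call being lost without 12 h replicate 1, 12 h replicate 3 or DMSO replicate 2. At 6 h Samd8 1458408_at was 1.64-fold higher (limma adjusted p = 0.0195), a call lost without 6 h replicate 3 or DMSO replicate 2. No Sgms2 probe set was called.

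Of the glycosphingolipid probe sets, 6 of 17 were higher and 2 lower at 12 h. Of the ceramidase probe sets 2 of 8 were higher, of the sphingomyelinase probe sets 2 of 8 were lower, and of the sphingosine 1-phosphate probe sets 2 of 13 were higher and 2 lower. Over all probe sets tested, the shares at 12 h were 11.5% higher and 11.8% lower. Both sphingomyelinase calls were Smpd4 probe sets with 12 h means below the threshold. Gla, the lysosomal alpha-galactosidase, was 1.69-fold higher on 1418248_at and 1.92-fold higher on 1449006_at at 12 h (limma adjusted p = 2.75e-05 and 0.00526). Gla 1449006_at was also the list's 1 call at 3 h, 2.05-fold higher (limma adjusted p = 0.0309), a call lost without any 1 of the 3 h arrays, DMSO replicate 1 or DMSO replicate 2. That call was lost too under quantile normalization, with no filter and with no intensity trend (limma adjusted p up to 0.0587). Asah2, a ceramidase, was 1.85-fold higher on 1425994_a_at at 12 h (limma adjusted p = 0.0393), a call lost with no filter, with no intensity trend and without any 1 of the 12 h arrays or DMSO replicate 3. The brighter Asah2 probe set 1450726_at was 1.09-fold higher and not called (limma adjusted p = 0.596). S1pr3, a sphingosine 1-phosphate receptor, was lower on 1438658_a_at by 1.26-fold at 6 h and 1.39-fold at 12 h (limma adjusted p = 0.00478 and 6.8e-05). Smpd4, a neutral sphingomyelinase, read 3.66, 1.36 and 3.27 on 1429530_a_at at 12 h, against 6.25, 6.01 and 5.94 in DMSO. The log2 difference of -3.30 (limma adjusted p = 0.00258) rests on 12 h arrays that were all below the threshold. With low values raised to the threshold, the 12 h level was 1.23-fold lower and not called (limma adjusted p = 0.176). Only DMSO and 3 h arrays reached the threshold, so the probe set passed the filter through them. Smpd4 probe set 1453182_a_at was not called (log2 difference -0.11, limma adjusted p = 0.649).

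**Figure D4:**
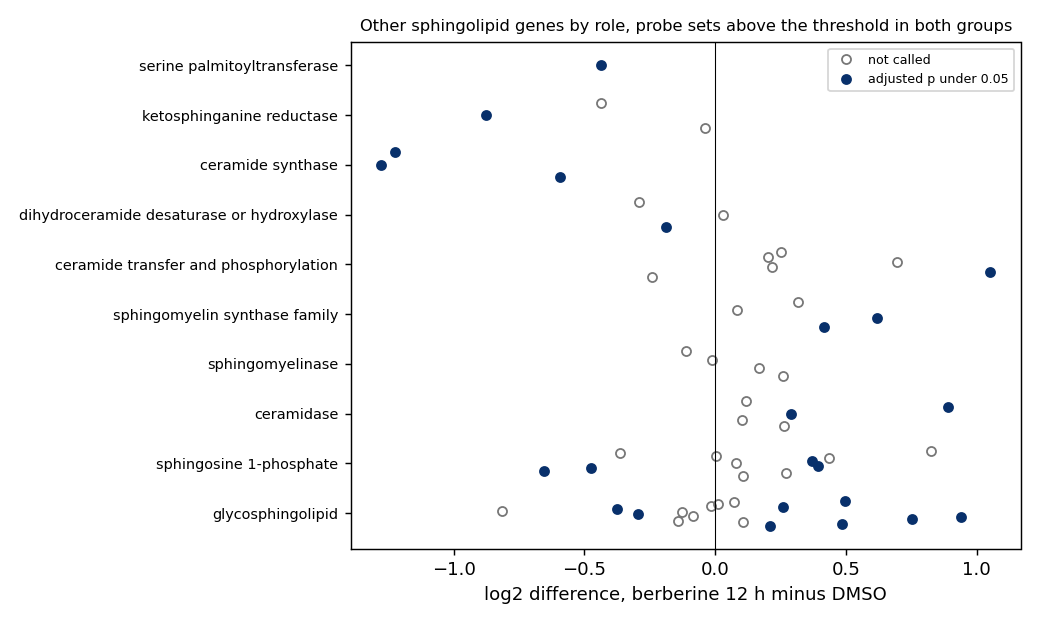
Log2 difference at 12 h of berberine from DMSO (x axis) for 56 of the 68 other sphingolipid probe sets, those above the threshold in both groups, by role (rows); filled points have a limma adjusted p under 0.05. The filled points run from -1.28 for Cers4 to 1.05 for Cert1, and open points lie on both sides of 0.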

How the data were processed

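Total RNA of 12 samples, 3 in each of 4 groups, was hybridised to 1-colour Affymetrix mouse arrays, per the labels. The deposited table holds log2 signals that the authors made with MAS5, per the submitters' processing notes; its version is not given in the sources used here. The linear signals behind them had a mean of 500.004 on each array after trimming 2% at each end, so each array had been scaled to a common mean. MAS5 works on 1 array at a time and leaves dim probe sets noisy. No further normalization was applied. Array number limits the precision.

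The 64 control probe sets were left out. Probe sets entered the fit with 3 or more of 12 arrays at or above the median of 5.77 (linear 54.6). A mean per group was fitted to all 12 arrays with limma 3.58.1 (R 4.3.3, eBayes with an intensity trend, 8 residual degrees of freedom), p-values were two-sided, and Benjamini-Hochberg adjustment ran over all 25053 probe sets. A group below the threshold on all its arrays gives only a lower bound for a fold. Figures were drawn with matplotlib 3.10.9. The fit was tested on simulated data.

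Genes were named from the platform annotation, and promoters came from RefSeq, build GRCm38.p6. Array values were printed for Sptlc2 and for called members. Of the other pathway genes, up to 3 per direction with the largest change at each time were named, and Sptssa, Degs1 and Sgms2 were added after their values were seen. The 3 probe sets most like the member with the largest F were named too. The members and lists were chosen with earlier results of these data known. Same-numbered arrays did not deviate together: the correlations of their deviations ran from -0.09 to 0.05 over 18 pairs. Alternatives were quantile normalization, no filter, a stricter filter, low values raised to the threshold, no intensity trend, 1 probe set per gene, a replicate block and leaving out each array.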

Additional observations from a re-analysis of the deposited data

Results flagged for a closer look

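The difference between 12 h and 3 h of berberine on Sptlc1 1422690_at was picked out because the effect of 1 time differed from that of another by a test of the difference itself: the log2 difference was -0.41, with all 3 arrays at 12 h (9.55, 9.49 and 9.66) below all 3 at 3 h (9.96, 10.05 and 9.91). The limma adjusted p was 0.0167, and it ran above the threshold in the fits named in the results.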

How the results depend on the processing

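Of 14 called member contrasts outside Sptlc2, 7 stood under every alternative and every left-out array: Sptlc1 1422690_at at 6 h and 12 h, Sgms1 1436499_at at 6 h and 12 h, and all 3 Ugcg probe sets at 12 h. The other 7 were lost under at least 1. Without the intensity trend the count of members called was 1 at 3 h (3 in the fit as described), 2 at 6 h (4) and 0 between berberine times (1). The 6 h count was also 2 with no filter and with low values raised to the threshold, and the stricter filter gave 2 between times. Under quantile normalization and under the stricter filter, the 6 h count was 5 and the F test count 6. With 1 probe set per gene, which leaves 7 member genes, 3 were called at 12 h (6 probe sets) and 3 by the F test (5 probe sets). Of 39 other pathway genes, 13 were called there, against 19 genes, with 25 probe sets, in the fit as described. With low values raised, the 12 h change of Sptlc2 1454257_at was 0.20 in place of 1.60. Sgms1 1426576_at turned to -0.0097 at 3 h under quantile normalization; it was not called. Leaving out 1 array gave counts of 0 to 3 at 3 h, 2 to 4 at 6 h, 5 to 6 at 12 h, 4 to 6 by the F test, 0 to 1 between times and 19 to 26 for the other pathway genes. Uncalled log2 differences turned sign as arrays were left out: Sptlc1 1436727_x_at ran from -0.52 to 0.49 at 3 h, -0.52 to 0.033 at 6 h and -0.38 to 0.19 at 12 h, Cers5 1447308_at from -0.21 to 0.11 at 3 h and -0.22 to 0.41 at 6 h, Cers5 1451209_at from -0.089 to 0.012 at 3 h, Cers2 1423955_a_at from -0.049 to 0.024 at 12 h and Sgms1 1426576_at from -0.15 to 0.13 at 3 h. The 3 h count was 0 without DMSO replicate 1, and 1 without 3 h replicate 1 or 2. Over all probe sets, 250 were called at 3 h and 50 without the trend, and 2627 at 6 h against 1434 without it. With the replicate number as a block, the counts were 3, 4 and 6 at 3 h, 6 h and 12 h, 5 by the F test, 1 between times and 25 for the pathway, as without it; the labels do not say that a number pairs arrays. Of 35 called contrasts of the other pathway genes, 19 stood in every setting that fitted them and 16 were lost under at least 1 setting. Dim probe sets near the threshold limit what can be seen of Cers5 1447308_at, Sgms1 1442079_at and the low Smpd4 signals.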
